A study of Mus musculus with 2 samples.

Results

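MHC class I antigen presentation was followed through 10 of the 31053 genes listed for microglia of the hypothalamus, which are resident macrophages of brain tissue. The genes were taken by symbol with no filter on their level, but earlier results of these data were known when they were chosen. They are the class I heavy chains H2-K1, H2-D1, H2-Q7 and H2-T23, the light chain B2m and the peptide transporter subunits Tap1 and Tap2. The others are the loading factor Tapbp and the immunoproteasome subunits Psmb8 and Psmb9. All 10 were detected in both libraries. The cells came from young wild-type mice, several of which were pooled. All of them had received plasma protein coupled to a dye, and the tissue was taken 20 hours later. Fluorescence sorting divided the microglia into cells that carried the dye (plasma-positive) and cells without it (plasma-negative), with 1 single-cell RNA library from each sort. There was no uninjected group. With 1 library per sort no test of a difference could be run, so that every interval below is a 95% interval for counting error alone and holds nothing of the spread between mice, sorts or preparations.

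Class I molecules display short peptides from a cell's own proteins to CD8+ T cells. Proteasomes cut the peptides, and interferon exchanges the standard catalytic subunits for Psmb8, Psmb9 and Psmb10. The transporter made of Tap1 and Tap2 carries peptides into the endoplasmic reticulum, where Tapbp (tapasin) holds the empty heavy chain close to it, and a loaded heavy chain leaves for the surface together with B2m. H2-K1 and H2-D1 are classical heavy chains, whereas H2-Q7 (Qa-2) and H2-T23 (Qa-1) are non-classical. H2-T23 presents peptides from the leaders of other class I chains to inhibitory receptors on NK cells. Microglia are known for low class I expression at rest and for raising it under interferon.

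The kept cells numbered 9860 in the plasma-negative library, with 34534518 UMIs (unique molecular identifiers, each standing for 1 counted RNA molecule), and 10362 in the plasma-positive library, with 41984977 UMIs. Median depth was 3270.5 and 3753 UMIs per cell, and the median mitochondrial share was 1.08% and 1.27%. At least 4 of 11 microglia markers were found in 99.62% and 99.61% of cells, and each marker was found in at least 64.4% of cells. Among other immune cells, which also express class I genes, border-associated macrophages had summed marker levels of 3.94 CPM in the plasma-negative and 7.03 CPM in the plasma-positive library (CPM, counts per 1000000 UMIs of the library). Of these markers Mrc1 was found most often, in 0.842% and 1.28% of cells, and Lyve1 was at 0 in both. Cells with 2 or more of them numbered 0 and 11, and 2 of the 11 held 4 or more. Monocyte markers summed to 3.82 and 3.69 CPM, with Ly6c2 at 0 and Ccr2 in 0.761% and 0.618% of cells. Dendritic cell markers summed to 6.95 and 5.98 CPM, and T or NK cell markers to 0.0869 and 0.0238 CPM with 7 of 8 at 0. Cells with 2 or more markers of another type numbered 368 and 532, most of them for the oligodendrocyte lineage (342 and 482 cells), and without them the summed level of the 10 genes differed by 0.17 between the libraries on the log2 scale, against 0.19 with them.

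The promoters of the heavy chains and of B2m, the chains of the class I molecule, are shown first. Whether their motifs bear on the levels described below was not tested. Each line gives the 200 bases before the start of the transcript, 5′ to 3′ on the strand of the gene, from RefSeq on GRCm38.p6. Capitals mark 3 motifs searched on both strands: GAANNGAAA, a form of the interferon-stimulated response element, and a pair of NF-kB motifs. GAANNGAAA is the second run in the first 3 lines and is read there on the reverse strand. An NF-kB motif, here called form A, is the first run in those 3 lines, and the other NF-kB form is the run in B2m. The capital runs do not overlap.
H2-D1, chr17:35262894-35263093, plus strand: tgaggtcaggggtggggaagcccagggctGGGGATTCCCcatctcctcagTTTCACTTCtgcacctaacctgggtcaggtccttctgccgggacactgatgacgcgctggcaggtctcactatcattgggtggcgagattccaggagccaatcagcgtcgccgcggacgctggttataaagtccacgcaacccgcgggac
H2-K1, chr17:34000348-34000547, minus strand: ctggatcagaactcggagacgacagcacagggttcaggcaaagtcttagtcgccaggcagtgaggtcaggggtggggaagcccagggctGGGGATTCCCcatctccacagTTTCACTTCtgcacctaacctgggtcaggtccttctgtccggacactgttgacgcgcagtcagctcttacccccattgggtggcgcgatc
H2-Q7, chr17:35438955-35439154, plus strand: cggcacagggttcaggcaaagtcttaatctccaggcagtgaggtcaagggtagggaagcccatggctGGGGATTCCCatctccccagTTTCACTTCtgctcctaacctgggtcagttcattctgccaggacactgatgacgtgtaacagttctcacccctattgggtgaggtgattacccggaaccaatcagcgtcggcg
B2m, chr2:122147487-122147686, plus strand: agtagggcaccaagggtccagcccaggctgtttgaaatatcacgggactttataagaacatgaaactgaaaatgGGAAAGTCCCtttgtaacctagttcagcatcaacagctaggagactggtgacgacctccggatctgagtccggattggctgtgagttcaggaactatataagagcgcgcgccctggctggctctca
H2-T23, chr17:36032702-36032901, minus strand: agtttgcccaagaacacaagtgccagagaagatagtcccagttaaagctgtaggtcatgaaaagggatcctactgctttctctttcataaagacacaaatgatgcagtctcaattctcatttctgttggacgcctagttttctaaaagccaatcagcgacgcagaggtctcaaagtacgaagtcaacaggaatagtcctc
In H2-K1 the NF-kB motif ran from 111 to 102 bases before the start and the interferon motif from 90 to 82. In H2-D1 they ran from 171 to 162 and from 150 to 142, and in H2-Q7 from 133 to 124 and from 113 to 105. The pair therefore had the same order and nearly the same spacing in these 3 heavy chains. B2m held an NF-kB motif of the other form, on the reverse strand, from 126 to 117 bases before the start. Among 32851 promoters of 27025 genes, searched over 250 bases, 6.31% held GAANNGAAA, 0.0852% held NF-kB form A and 0.356% the other NF-kB form. GAANNGAAA and NF-kB form A were found together in 7 promoters of 6 genes (0.0213%), namely H2-D1, H2-K1, H2-Q6, H2-Q7, Hyal2 and R3hdm2. H2-T23, Tap1, Tapbp, Psmb8 and Psmb9 held none of the 3 in this window, which says only that those letters are not there. Other forms of the interferon element were not searched, so a promoter without GAANNGAAA may still hold one. The runs gaaactgaaa in B2m and tttctctttc in H2-T23 are GAAA repeats, on the reverse strand in H2-T23, that the search could not match. RefSeq entries were matched for 9 of the 10 genes, and Tap2 was the exception.

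Psmb9 and Tap1 are transcribed away from each other, and their RefSeq starts lie 226 bases apart. The 225 bases between them, chr17:34187331-34187555 on the plus strand, lie upstream of both RefSeq starts. In the GENCODE coordinates given below the same stretch lies within Psmb9. It is shown because these neighbours, 1 a protease subunit and 1 a transporter subunit, could be read side by side in the data.
Psmb9 and Tap1: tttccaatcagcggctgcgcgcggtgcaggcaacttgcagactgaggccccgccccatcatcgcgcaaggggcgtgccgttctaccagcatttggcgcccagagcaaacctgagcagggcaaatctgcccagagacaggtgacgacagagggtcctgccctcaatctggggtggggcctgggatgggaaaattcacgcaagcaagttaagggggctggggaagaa
On GRCm38 with GENCODE M21, Psmb9 (chromosome 17, 34181987 to 34187764, minus strand), Tap1 (34187553 to 34197225, plus), Psmb8 (34197721 to 34201454, plus) and Tap2 (34203527 to 34216321, plus) form 1 run of genes. Tapbp (33915899 to 33929292, plus) and H2-K1 (33996017 to 34000347, minus) lie on one side of that run, and H2-D1 (35262730 to 35267499, plus), H2-Q7 (35439155 to 35443773, plus) and H2-T23 (36029773 to 36032855, minus) on the other. All 9 belong to the MHC region of chromosome 17, while B2m lies on chromosome 2 (122147686 to 122153083, plus). All 10 are annotated as protein-coding.

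B2m was the most abundant of the 10 genes and H2-Q7 the least, and the order was nearly the same in both libraries. B2m stood at 1396 CPM (1384 to 1409) among plasma-negative and 1609.6 CPM (1597 to 1622) among plasma-positive cells, with 48223 and 67578 UMIs, and ranked 65 and 58 among all genes. It supplied 47.4% and 48.0% of the UMIs of the 10 genes. The light chain pairs with every class I heavy chain, and its level was above that of the 4 heavy chains summed, 1025 and 1188 CPM. H2-D1 followed at 461.6 CPM (454.5 to 468.8) and 580.8 CPM (573.5 to 588.1), from 15941 and 24383 UMIs. H2-K1 was at 325.6 CPM (319.6 to 331.7) and 378.4 CPM (372.5 to 384.3), from 11244 and 15887 UMIs. Both classical chains stood above the non-classical H2-T23, which was at 234.8 CPM (229.7 to 240.0) and 220.3 CPM (215.9 to 224.9). H2-Q7 was near the limit of detection, with 116 and 351 UMIs in all, or 3.36 CPM (2.78 to 4.03) and 8.36 CPM (7.51 to 9.28).

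Among the genes that make and carry peptides, the protease subunit Psmb8 was highest, at 204.7 CPM (199.98 to 209.6) among plasma-negative and 223.0 CPM (218.5 to 227.6) among plasma-positive cells. Tapbp was at 129 CPM (125 to 133) and 135 CPM (131 to 138). Psmb9 was at 74.1 CPM (71.3 to 77.0) and 82.7 CPM (80.0 to 85.5). These 3 were counted more often than Tap1, at 37.7 CPM (35.7 to 39.8) and 40.4 CPM (38.5 to 42.4). Tap2, the partner of Tap1 in the transporter, was at 77.2 CPM (74.3 to 80.2) and 73.1 CPM (70.5 to 75.7). Psmb9 and Tap2 could not be ordered in the plasma-negative library, where their intervals overlapped, and the same held for Psmb8 and H2-T23 in the plasma-positive library. Molecules were counted near the 3′ end of transcripts and are not scaled by length, so this is an order of counted molecules and capture may differ between genes.

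**Figure D1:**
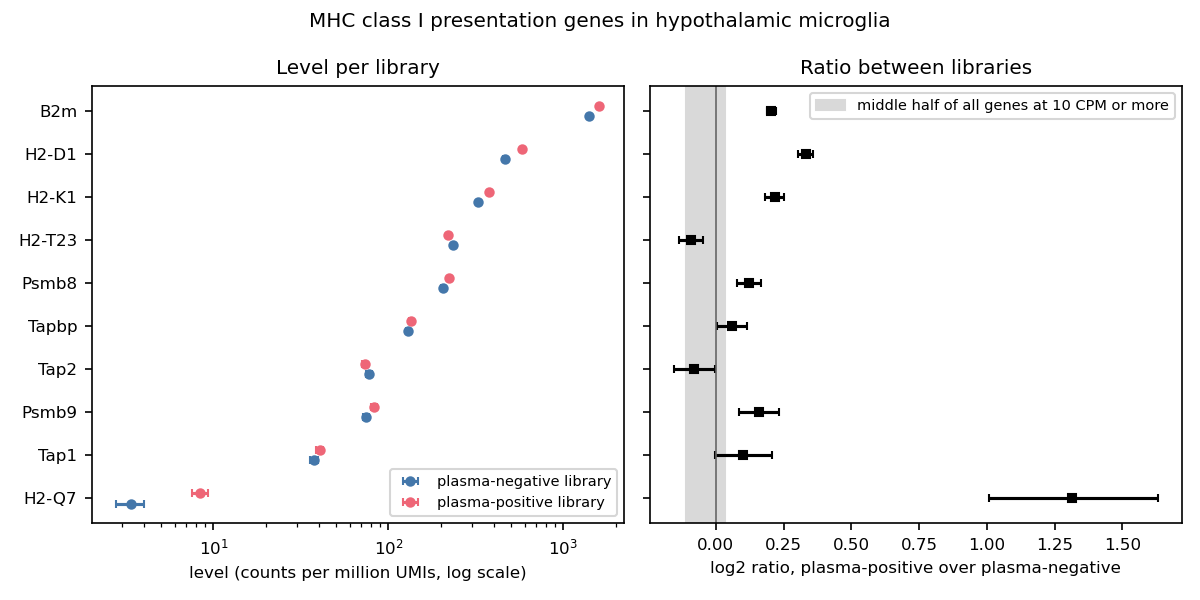
The left panel plots the level of each of the 10 genes in each library on a log axis in CPM, and the right panel the log2 ratio of plasma-positive over plasma-negative; bars are 95% intervals for counting error, and the grey band is the interquartile range of all genes at 10 CPM or more. B2m leads both libraries at 1396 and 1609.6 CPM, H2-D1 has the highest ratio among the genes above 10 CPM at 0.33, and H2-T23 and Tap2 lie within the band.

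The classical heavy chains and B2m were higher in the plasma-positive library, the peptide supply genes differed less, and H2-T23 and Tap2 were slightly lower. The 10 genes together made up 0.294% of all plasma-negative and 0.335% of all plasma-positive UMIs, 2945 CPM (2927 to 2963) against 3351 CPM (3334 to 3369), a ratio of 1.14 (1.13 to 1.15). H2-D1 was 1.26-fold higher (1.23 to 1.28), H2-K1 1.16-fold (1.13 to 1.19) and B2m 1.15-fold (1.14 to 1.17). Summed, the classical heavy chains H2-K1 and H2-D1 were 1.22-fold higher, with 787 CPM in the plasma-negative and 959 CPM in the plasma-positive library. The 5 peptide supply genes (Tap1, Tap2, Tapbp, Psmb8 and Psmb9) summed to 523 and 554 CPM, a ratio of 1.06. H2-Q7 had the highest ratio of the 10, 2.49 (2.01 to 3.1), at a level too low to be compared with other genes at the 10 CPM minimum used below.

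Within the peptide supply group, Psmb9 was 1.12-fold (1.06 to 1.18) and Psmb8 1.09-fold (1.06 to 1.12) higher in the plasma-positive library, so both inducible protease subunits were on the same side. For the transporter the subunits lay on different sides, with Tap1 at 1.07 (0.997 to 1.15) and Tap2 at 0.946 (0.898 to 0.997). The interval of Tap1 holds 1, and once cells were thinned to equal depth its log2 ratio was 0.00. Psmb9 and Tap1, which share the sequence between their RefSeq starts, thus had ratios whose intervals overlap. An unequal change of the 2 was not detectable at this depth. Tapbp was 1.04-fold higher (1.00 to 1.08). H2-T23 was lower in the plasma-positive library, at 0.938 of the plasma-negative level (0.911 to 0.967), unlike the other heavy chains.

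These differences were set against the 8355 genes that reached 10 CPM in either library, which included 9 of the 10 members and not H2-Q7. A level 1.1-fold or more above the plasma-negative one held for 4 of the 9 (H2-K1, H2-D1, B2m and Psmb9) and for 6.82% of all these genes. None of the 9 was 1.1-fold or more lower, against 16.5% of all genes. At 1.2-fold, H2-D1 alone was higher, beside 1.32% of genes, and none was lower, beside 2.31%. At 1.5-fold none of the 9 was higher, beside 0.323% of genes, and none lower, beside 0.0239%. The median log2 ratio of the 9 was 0.12, with 7 above 0 and 2 below, while over all genes it was -0.04 with quartiles of -0.11 and 0.04 and 35.7% above 0. Tap2 (-0.08) and H2-T23 (-0.09) therefore lay within the interquartile range of all genes.

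Counting error alone sets a weaker standard. The interval of the ratio was clear of 1 on the higher side for 6 of the 9 (H2-K1, H2-D1, B2m, Tapbp, Psmb8 and Psmb9), beside 11.9% of all genes, and on the lower side for Tap2 and H2-T23, beside 26.4%. The split of all genes depended on the scaling: with edgeR's TMM factors 11.5% of genes were 1.1-fold or more higher and 9.40% lower, and 6 of the 9 members were higher and none lower, Psmb8 and Tap1 being added. Among the 8355 genes ranked by ratio, H2-D1 stood at 74, H2-K1 at 174, B2m at 212, Psmb9 at 425, Psmb8 at 690, Tap1 at 939, Tapbp at 1547, Tap2 at 5441 and H2-T23 at 5783.

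The share of cells with a UMI was read with cells of both libraries thinned to 1000 UMIs each, which left 9064 plasma-negative and 9759 plasma-positive cells and left out 796 and 603 shallower ones. B2m was then found in 69.4% (68.5 to 70.4) and 74.8% (73.9 to 75.7) of cells, and without thinning in 87.4% and 91.9%. H2-D1 was found in 34.2% (33.2 to 35.2) and 37.8% (36.8 to 38.8), and unthinned in 67.2% and 72.6%. H2-K1 was found in 26.7% (25.8 to 27.7) and 28.6% (27.7 to 29.5), and unthinned in 58.4% and 63.8%. The intervals of B2m and H2-D1 were apart between the libraries, and those of H2-K1 were narrowly so, with bounds that are equal once rounded. H2-T23 was found in 21.5% (20.6 to 22.3) and 19.99% (19.2 to 20.8), whereas unthinned it was in more plasma-positive cells, 51.3% against 53.1%, the library with the greater depth. Its thinned share followed its CPM and the unthinned share did not.

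The remaining members were found in fewer cells. After thinning, Psmb8 was in 18.6% and 19.95% of cells, Tapbp in 11.7% and 12.1%, Psmb9 in 7.34% and 8.01%, Tap2 in 7.62% and 6.83%, and Tap1 in 3.78% and 3.68%. Tap1 was the one of the 10 whose thinned share and CPM differed in opposite directions, and no order is read from it. Unthinned, the same genes were in 46.7% and 53.9%, 33.4% and 38.7%, 21.6% and 26.8%, 23% and 24.5%, and 11.9% and 14.2%. H2-Q7 was in 0.320% (0.214 to 0.459) and 0.697% (0.541 to 0.883) after thinning and in 1.05% and 2.58% without. No cell type without class I expression was present to measure the share that free RNA in the droplets would give, so its part in these shares was not tested.

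Most microglia held a few class I UMIs, and a thin upper tail was wider in the plasma-positive library. At 1000 UMIs per cell the 10 genes summed to a mean of 2.90 UMIs per cell (SD 1.99 over cells) in the plasma-negative and 3.29 (SD 2.38) in the plasma-positive library, with a median of 3 in both. Cells with none of the 10 numbered 696 (7.68%, 7.14 to 8.25) and 619 (6.34%, 5.87 to 6.84). Cells with 8 or more numbered 220 (2.43%, 2.12 to 2.77) and 492 (5.04%, 4.62 to 5.49). The 99th percentile was 9 and 11 UMIs, and the highest cell held 18 and 24. The variance divided by the mean (Fano factor, which is 1 for pure counting noise) was 1.36 and 1.72 for the sum. By gene it was 1.25 and 1.47 for H2-D1, 1.25 and 1.35 for B2m, 1.14 and 1.21 for H2-K1 and 0.997 and 1.18 for H2-Q7, with the second value of each pair the plasma-positive library. For Tap1, Tap2, Psmb8, Psmb9, Tapbp and H2-T23 it lay between 0.996 and 1.07 in both, so that at this depth their variation between cells was close to counting noise.

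H2-K1, H2-D1 and B2m were found together in cells more often than their separate shares would give, and H2-Q7 was found with H2-D1 and B2m in both libraries and with H2-K1 in the plasma-positive one. For H2-K1 with H2-D1, Pearson's r of log counts over thinned cells was 0.085 in the plasma-negative and 0.177 in the plasma-positive library. They shared 929 cells (10.2%, where the product of their shares is 9.15%) and 1302 cells (13.3%, where the product is 10.8%). For H2-D1 with B2m r was 0.092 and 0.174, and for H2-K1 with B2m 0.053 and 0.112. The median of these 3 correlations was 0.085 and 0.174, while over the other 42 of the 45 pairs it was 0.00 and 0.01, with a highest value of 0.04 and 0.09. In the plasma-positive library H2-Q7 had r of 0.088 with H2-K1 and 0.088 with H2-D1, sharing 43 and 46 cells, which is 2.21 and 1.79 times the product of the shares. In the plasma-negative library it shared 17 cells with H2-D1, 1.71 times the product (r of 0.040), and 8 cells with H2-K1, 1.03 times the product (r of 0.0067). With B2m it was at 1.14 times the product in the plasma-negative and 1.18 times in the plasma-positive library (r of 0.036 and 0.071). H2-T23 had r of 0.050 with H2-D1 and 0.044 with H2-K1 there. Tap1, Tap2, Tapbp and Psmb9 showed no pair among themselves above 0.05 in either library. These correlations are descriptions of cells that share a library, and in sparse counts a low r carries little information.

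**Figure D2:**
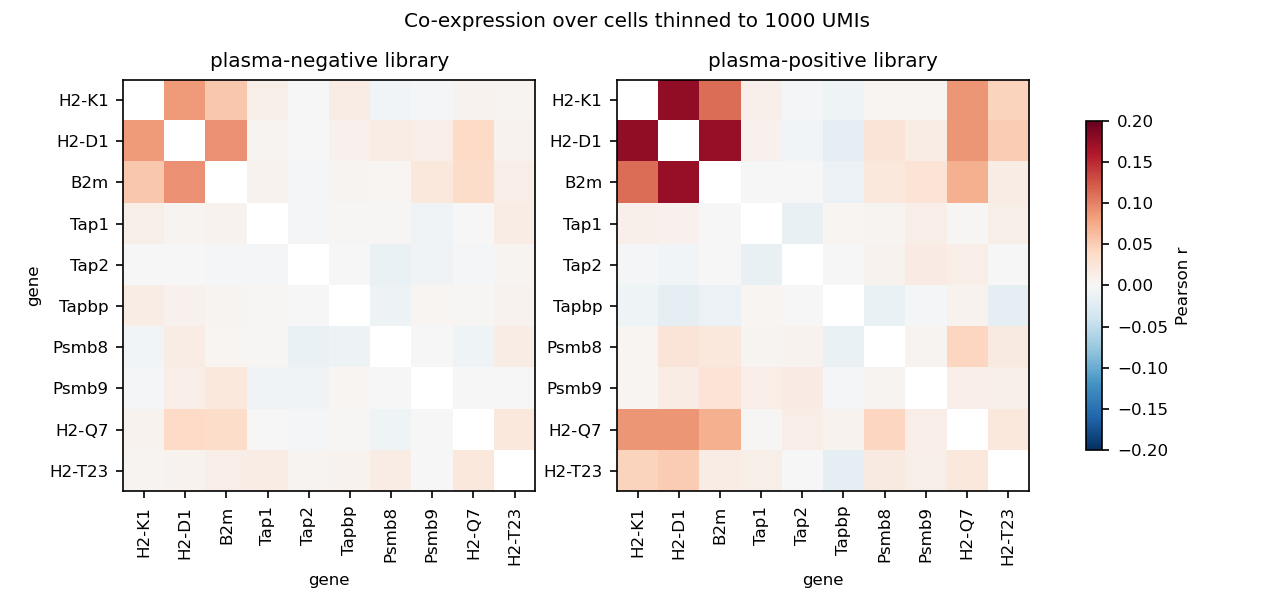
Each square gives Pearson's r between a pair of the 10 genes over cells thinned to 1000 UMIs, with 9064 plasma-negative cells on the left and 9759 plasma-positive cells on the right; the colour scale runs from -0.20 to 0.20. The block of H2-K1, H2-D1 and B2m is darker in the plasma-positive library (H2-K1 with H2-D1, 0.177 against 0.085), where H2-Q7 reaches 0.088 with it (0.040 in the plasma-negative library), and the remaining squares are pale in both.

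Class I genes were then read against the interferon response of the same cells, measured as the UMIs of 23 interferon-induced genes outside the class I pathway (among them Ifit3, Isg15, Irf7 and Ifitm3) after thinning. Cells with 3 or more of these UMIs numbered 110 in the plasma-negative (1.21%, 0.998 to 1.46) and 444 in the plasma-positive library (4.55%, 4.14 to 4.98), and held a mean of 6.49 and 6.50 of them. Cells with 0 made up 83.2% and 76.7%. In both libraries the 10 genes summed higher in cells with 3 or more than in cells with 0: 4482 against 2860 CPM in the plasma-negative (1.57-fold, 1.43 to 1.71) and 5818 against 3068 CPM in the plasma-positive library (1.90-fold, 1.82 to 1.97). Between the libraries the sum differed 1.07-fold among cells with 0 and 1.30-fold (1.18 to 1.43) among cells with 3 or more.

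The ratio of H2-D1 between the libraries was largest among the cells richest in interferon UMIs, which were a small share of both. Among cells with no interferon UMI it was at 444 CPM in the plasma-negative and 493 CPM in the plasma-positive library. Among cells with 3 or more it was at 664 CPM (520 to 834) and 1365 CPM (1258 to 1478), 1.49-fold (1.17 to 1.88) and 2.77-fold (2.54 to 3.02) above the cells with 0. Between the libraries it was thus 2.06-fold higher (1.61 to 2.66) among plasma-positive cells of the top class, against 1.11-fold (1.06 to 1.16) among cells with 0. The top classes of both libraries held nearly the same mean number of interferon UMIs, as given above, but Apoe was not held equal between them. H2-K1 went from 319 to 600 CPM (464 to 763) in the plasma-negative and from 333 to 734 CPM (657 to 818) in the plasma-positive library, with overlapping intervals at the top. Among cells with 2 interferon UMIs, however, H2-K1 was 1.52-fold higher (1.14 to 2.06) in the plasma-positive library, at 521 CPM (449 to 600) against 342 CPM (263 to 438), and H2-D1 was 1.56-fold higher (1.26 to 1.96) there. B2m went from 1323 to 1927 CPM and from 1482 to 2468 CPM, 1.46-fold (1.27 to 1.67) and 1.67-fold (1.56 to 1.77). H2-T23, slightly lower over all plasma-positive cells, also stood higher in the top class, at 391 against 244 CPM (1.60-fold, 1.15 to 2.16) in the plasma-negative and 394 against 220 CPM (1.79-fold, 1.52 to 2.09) in the plasma-positive library.

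Among the peptide supply genes the top class of the plasma-negative library rested on few counts. Psmb9 was at 162 CPM against 77.7 CPM in plasma-positive cells (2.09-fold, 1.61 to 2.67) and at 90.9 against 75.1 CPM in plasma-negative cells (1.21-fold, 0.58 to 2.24). Psmb8 was at 345 against 220 CPM (1.57-fold, 1.32 to 1.85) and at 236 against 209 CPM (1.13-fold, 0.74 to 1.66). The plasma-negative intervals of both protease subunits include 1 and also the plasma-positive ratio. Tap1 was at 85.6 against 35.1 CPM from 38 UMIs (2.44-fold, 1.69 to 3.43) in plasma-positive and at 145 against 37.9 CPM from 16 UMIs (3.83-fold, 2.16 to 6.34) in plasma-negative cells. Tap2 differed less from cells with 0, at 1.19-fold in the plasma-positive and 1.5-fold (0.80 to 2.59) in the plasma-negative library, where 13 UMIs were counted. Tapbp was the only member whose top class was lower in the plasma-positive library with an interval clear of 1, at 140 CPM against 300 CPM (0.465-fold, 0.30 to 0.733), from 62 and 33 UMIs. H2-Q7 was at 40.5 CPM in the plasma-positive top class from 18 UMIs, against 4.01 CPM from 30 UMIs in cells with 0 (10.1-fold, 5.31 to 18.7), and the plasma-negative top class held 1 UMI of it.

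**Figure D3:**
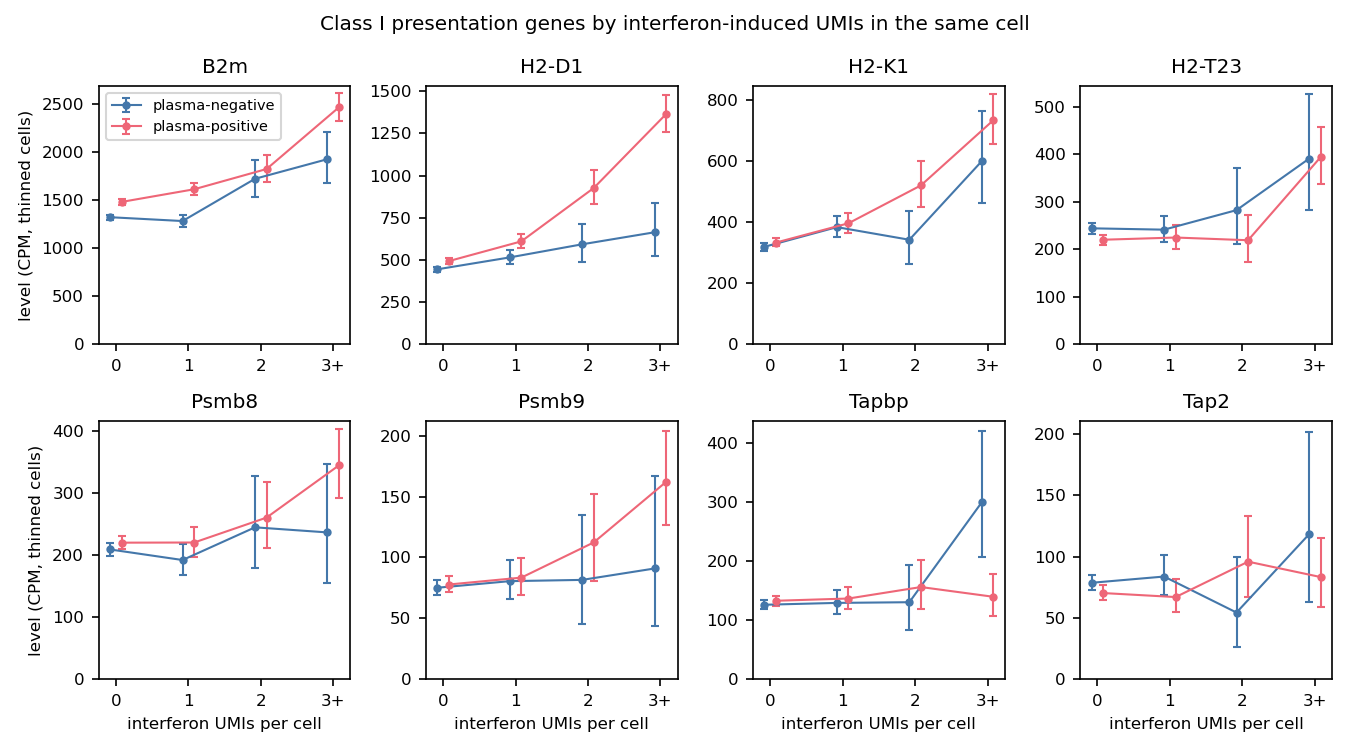
Each panel plots the level of 1 gene, in CPM of thinned cells, against the number of interferon-induced UMIs in the same cell (0, 1, 2, and 3 or more) for both libraries, with 95% counting intervals. H2-D1 climbs to 1365 CPM in the plasma-positive and 664 CPM in the plasma-negative library, the lines of H2-K1 stay within overlapping intervals at 3 or more, and Tapbp is lower in plasma-positive cells there (140 against 300 CPM).

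Apoe, which encodes a lipid carrier and is a marker of activated microglia, gave a similar picture. Cells with 3 or more Apoe UMIs after thinning made up 1.81% (164) of the plasma-negative library and 6.50% (634) of the plasma-positive one, and these classes were not matched, since they held a mean of 5.41 and 14.0 Apoe UMIs. H2-D1 was at 726 CPM in that class of the plasma-negative library, against 448 CPM in cells without Apoe (1.62-fold, 1.34 to 1.95), and at 1486 against 481 CPM in the plasma-positive library (3.09-fold, 2.87 to 3.32). H2-K1 was 1.53-fold and 2.50-fold higher, B2m 1.36-fold and 1.77-fold, and H2-T23 1.32-fold and 1.40-fold. Among these genes alone the order by this ratio was therefore H2-D1, H2-K1, B2m and H2-T23 in both libraries, although in the plasma-negative library the interval of H2-D1 includes the values of H2-K1 and B2m. H2-Q7 was above them, at 4.25-fold (0.487 to 17.1) from 2 UMIs and 7.89-fold (4.53 to 13.5) from 24 UMIs. Psmb9 was at 1.04-fold and 1.48-fold (1.16 to 1.88), and in the plasma-positive library its interval includes the value of H2-T23, so these genes could not be ordered.

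The share of cells in each class was then held equal, by weighting the plasma-positive classes to the plasma-negative shares. The log2 ratio of the summed genes between the libraries went from 0.18 in thinned cells to 0.13 with interferon classes weighted and to 0.10 with Apoe classes weighted. For H2-D1 it went from 0.30 to 0.20 and 0.15, for H2-K1 from 0.15 to 0.08 and 0.04, and for B2m from 0.23 to 0.19 and 0.16. Of these 3 genes B2m kept the largest share of its difference under both weightings and H2-K1 the smallest. For H2-Q7 the value went from 1.26 to 0.91 and 0.85. H2-T23 moved the other way, from -0.11 to -0.14 under both, and Psmb8 stayed at 0.10 and 0.11 against 0.13.

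After these classes had been seen, cells were also crossed by whether they held any Apoe UMI and any interferon UMI. Cells with neither made up 76.7% of the plasma-negative (6951) and 64.3% of the plasma-positive library (6275), and cells with both 1.22% (111) and 6.40% (625). Among cells with neither, H2-K1 was at 313 CPM in the plasma-negative and 314 CPM in the plasma-positive library (1.00-fold, 0.942 to 1.06). H2-D1 was at 433 and 457 CPM (1.05-fold, 1.00 to 1.11) and B2m at 1297 and 1428 CPM (1.1-fold, 1.07 to 1.13). In this majority of cells the ratio of H2-K1 was 1.00 and that of B2m remained above 1, while H2-T23 was lower, at 242 and 217 CPM (0.895-fold, 0.833 to 0.962).

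Cells with both kinds of UMI had the highest levels of the classical chains. H2-D1 was at 757 CPM (604 to 937) in plasma-negative and 1424 CPM (1332 to 1521) in plasma-positive cells, 1.88-fold apart (1.5 to 2.38). H2-K1 stood at 631 CPM (492 to 797) and 758 CPM (692 to 830), and its ratio of 1.2 has an interval that includes 1 (0.934 to 1.57). B2m was at 1721 CPM (1485 to 1983) and 2429 CPM (2308 to 2554), 1.41-fold apart (1.21 to 1.65). Relative to cells with neither, H2-D1 was 1.75-fold higher (1.39 to 2.17) in the plasma-negative and 3.12-fold higher (2.89 to 3.36) in the plasma-positive library. The cells with both were unequal in Apoe, with a mean of 2.85 and 10.5 UMIs, and less so in interferon genes, with 1.63 and 3.03 UMIs. H2-Q7 was at 40 CPM from 25 UMIs in plasma-positive cells of this class, and 1 UMI was counted in the plasma-negative ones.

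**Figure D4:**
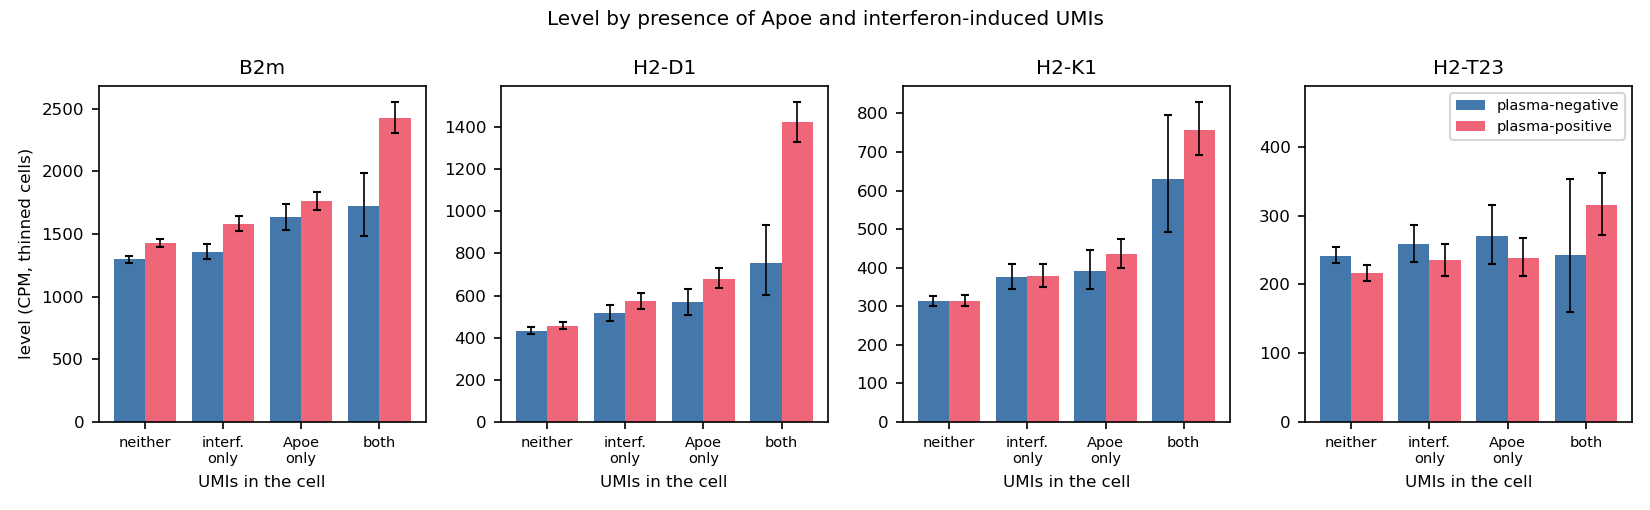
Bars give the level of 4 genes, in CPM of thinned cells, in cells with neither Apoe nor interferon-induced UMIs, with interferon-induced UMIs only, with Apoe only and with both; error bars are 95% counting intervals. H2-K1 is equal between the libraries in cells with neither (313 and 314 CPM), H2-D1 is 1.88-fold apart in cells with both (757 and 1424 CPM), and the bars of H2-T23 overlap in every class but cells with neither.

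Depth and mitochondrial share, which differed between the libraries, were divided into 5 bins each over both libraries together. The summed level of the 10 genes was higher in the plasma-positive library in 5 of 5 depth bins (log2 ratios of 0.12 to 0.22) and in 5 of 5 mitochondrial bins (0.09 to 0.25). H2-D1 was higher in all 10 bins, with 0.23 to 0.42 by depth and 0.20 to 0.43 by mitochondrial share, and so were H2-K1, B2m and Psmb9. H2-T23 was higher in 1 of 5 depth bins and in 0 of 5 mitochondrial bins, and Tap2 in 2 and 1 of 5. The level itself was related to depth, since the sum went from 2617 CPM in the shallowest to 3024 CPM in the deepest bin of the plasma-negative library, and from 2949 to 3515 CPM in the plasma-positive library.

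The rest of the class I pathway was read from fixed lists, again over genes with at least 10 CPM, of which 35.7% were above 0 and 16.5% were 1.1-fold or more lower. The immunoproteasome and activator genes outside the 10 were on the higher side in 5 of 5 cases, with a median log2 ratio of 0.16, and 3 of them were 1.1-fold or more higher (all genes, 6.82%). These were Pomp, the maturation factor of the proteasome, at 277 and 316 CPM (0.19, 0.15 to 0.23), and the activator subunits Psme1 at 272 and 304 CPM (0.16) and Psme3 at 19.9 and 22.8 CPM (0.20). Psme2, the partner of Psme1, was at 106 and 116 CPM (0.12). Psmb10, the third inducible catalytic subunit beside Psmb8 and Psmb9, was at 94.9 and 96.6 CPM (0.02, -0.04 to 0.09). The standard catalytic subunits that they replace had a median of 0.05, with Psmb6 at 0.09 (0.03 to 0.16), Psmb7 at 0.05 and Psmb5 at 0.01. Of 11 other subunits of the core particle 10 were above 0, with a median of 0.05 and none past 1.1-fold, from Psmb2 at 0.13 and Psmb1 at 0.10 to Psma6 at 0.01 and Psma3 at -0.03.

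Of 15 loading and trimming genes 7 were above 0 and 8 below, with a median of -0.01 beside -0.04 over all genes. None was 1.1-fold or more higher, beside 6.82% of all genes, a share that would be about 1 gene of 15. The highest were the aminopeptidase Lap3 (0.08) and the glycoprotein folding sensor Uggt1 (0.06), and the lowest were the peptidase Nrd1, at 109 and 93.4 CPM (-0.23, -0.29 to -0.16), and the disulphide isomerase Pdia6 (-0.05). Of 8 further class I and class I-like chains 5 were above 0 and 3 below, with a median of 0.04. H2-T22 was the highest, at 21.1 and 25.8 CPM (0.29, 0.15 to 0.43), followed by the IgG receptor chain Fcgrt at 85.7 and 91.7 CPM (0.10), and H2-T24 (-0.08) and the lipid-presenting Cd1d1 (-0.02) were the lowest.

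Of 17 regulators of class I transcription 5 were above 0 and 12 below, with a median of -0.06, which is close to the values over all genes (35.7% above 0, median -0.04). Stat2, which carries the type I interferon signal to the nucleus, was on the higher side (0.39). The lowest were Relb (-0.21) and Rfx5 (-0.19). Irf1 was at 44.7 and 46.5 CPM (0.06, -0.04 to 0.15). Nlrc5, the transactivator dedicated to class I genes, was below the minimum, with 45 and 82 UMIs or 1.30 and 1.95 CPM (0.58, 0.04 to 1.14). The 7 interferon receptors and kinases had a median of -0.03 and none past 1.1-fold, beside 6.82% of all genes on the higher and 16.5% on the lower side. They ran from Ifngr2 (0.03) and Tyk2 (0.02) to Ifngr1 (-0.08) and Jak2 (-0.11). Of the class I binding receptors on myeloid cells, Pirb was at 0.17 and Lilra5 at -0.21.

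**Figure D5:**
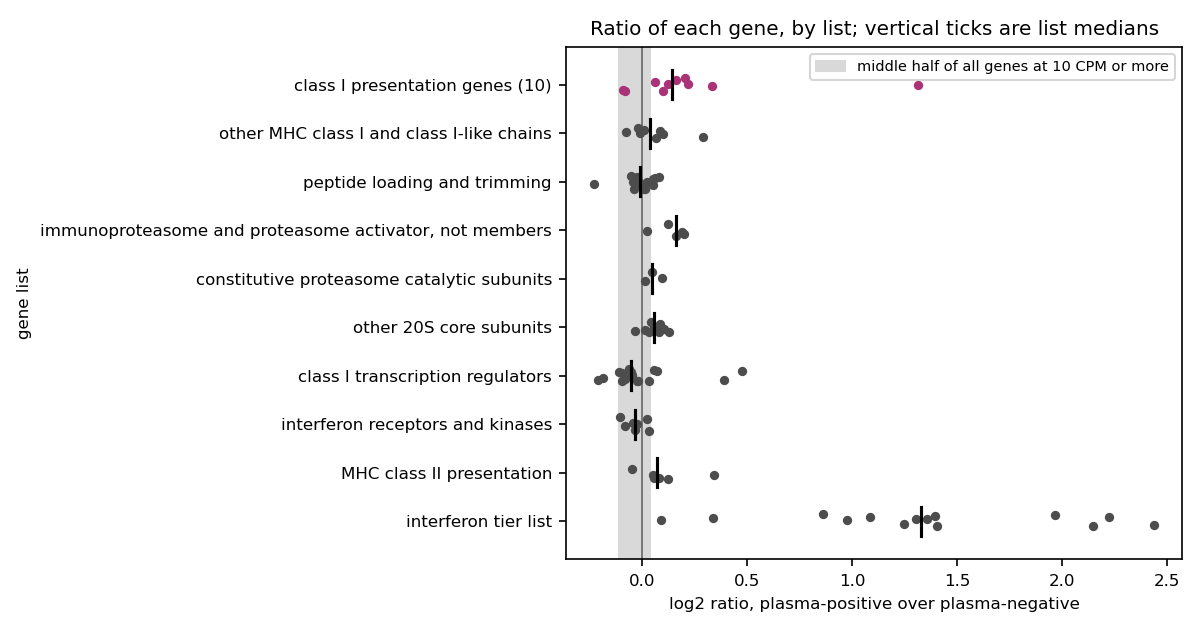
Each point is the log2 ratio of 1 gene, plasma-positive over plasma-negative, with genes arranged by list and list medians as vertical ticks; the lists hold genes at 10 CPM or more except for the 10 class I presentation genes, which include H2-Q7 (1.32), and the grey band is the interquartile range of all genes at 10 CPM or more. The immunoproteasome and activator genes have a median of 0.16, the loading and trimming genes lie about 0 with a median of -0.01, and the interferon-induced genes that defined the cell classes have a median of 1.33.

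The genes whose counts varied most like the summed class I genes over thinned cells were sought among 3349 genes at 50 CPM or more in both libraries. They were Ctss, a lysosomal protease (mean r over the libraries 0.21, 0.19 in the plasma-negative and 0.24 in the plasma-positive library), C1qb of complement (0.19), Cst3, a protease inhibitor (0.18), Rps29 of the ribosome and Apoe (both 0.16). Over all genes the median was -0.01. Apoe was the one of these that differed most between the libraries, with 0.08 in the plasma-negative and 0.25 in the plasma-positive cells. For H2-D1 alone the closest were Apoe (0.16), Ctss (0.15) and Lyz2 (0.12), for H2-K1 Apoe (0.11), Ctss (0.07) and Fth1 (0.07), and for B2m Cst3 (0.22), Ctss (0.20) and Tmsb4x (0.17). Abundant genes reach higher r in sparse counts, and all of these share the library and the cells.

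Class I genes form a family of similar sequence, so exact sharing of sequence with other genes was measured over the last 500 bases of their annotated transcripts, the region read by this method. For H2-D1, B2m, Tap1, Tap2, Tapbp, Psmb8 and Psmb9 none of the 90-base windows was shared exactly with another gene. H2-K1 shared 2 of 1323 windows (0.151%), H2-Q7 25 of 528 (4.73%, with H2-Q5), and H2-T23 55 of 411 (13.4%), of which 5 were with the pseudogene H2-T-ps and the others with Hook2 and Rab33b. The counts of H2-Q7 and H2-T23 are therefore less certain than those of the other 8. The annotations of Psmb9 and Tap1 overlap on opposite strands, and how the counting used strand is not given in the sources used here.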

How the data were processed

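For both libraries the authors deposited raw UMI counts of each gene in each cell. Per the labels' protocols, 10x Genomics' 3' chemistry v3.1 was used. Cell Ranger 6.1.2 wrote the matrices per the file headers, whereas the submitters' processing notes name Cell Ranger 3.0.1. The genome build, annotation and use of strand are not given in the sources used here, and cell barcodes were not used here.

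Cells were kept from 500 UMIs and 300 genes upwards if mitochondrial UMIs did not exceed 10%. Too few genes removed 1 and 0 cells, and mitochondrial UMIs 17 and 28, of 9878 plasma-negative and 10390 plasma-positive cells. Scrublet (scanpy 1.11.5) called 0 doublets in both libraries with its automatic threshold, where the expected shares given to it were 7.89% and 8.29%. Why none was called was not tested, and the calls were not relied on. All cells were kept, and an alternative removed the 778 and 859 highest scores.

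Counts were summed per library and divided by the library total (CPM), with no pseudocount and no test. Sums carry exact Poisson, shares exact Clopper-Pearson and ratios exact conditional binomial intervals at 95% (scipy 1.17.1). For shares, correlations and classes of cells, each cell was thinned to 1000 UMIs without replacement. Alternatives included edgeR 4.0.16 TMM factors and DESeq2 1.42.0 size factors, used for scaling only. The interval and thinning steps were tested on simulated data. Motifs were searched in RefSeq promoters (GRCm38.p6), and coordinates are from GENCODE M21 (GRCm38), which need not be the authors' build.

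The 10 genes and all gene lists were chosen with earlier results of these data known. From each list the text names the 2 highest and 2 lowest ratios at 10 CPM or more, all proteasome activator, immunoproteasome and standard catalytic genes, and Nlrc5 and Irf1. One gene that this rule takes in is not reported here. By likeness it names the 5 genes closest to the summed members and the 3 closest to B2m, H2-K1 and H2-D1. H2-Q6, Hyal2 and R3hdm2 were named for their promoter motifs, after the search.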

Additional observations from a re-analysis of the deposited data

How the results depend on the processing

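No paired analysis was possible because both sorts gave only 1 library and no test was run, and no replicate could be left out. Of 355 recomputed values 272 stayed within their error (counts, within 1.5 times), and 1 changed sign, that of Tap1, whose interval had included 0 (0.10 as reported and -0.19 in cells with neither Apoe nor interferon UMIs). The summed log2 ratio of the 10 genes, 0.19 as reported, was 0.23 with TMM and also with DESeq2 factors, 0.21 with mitochondrial and ribosomal protein genes out of the total, 0.17 without cells carrying 2 markers of another type, and 0.16 at 2000 UMIs per cell. With cells thinned to 1000 UMIs, 1 member was 1.1-fold or more lower, where none was as reported, beside 23.2% of all genes. With no minimum level H2-Q7 joined the calls, making 2 members higher at 1.2-fold and 1 at 1.5-fold. The share of all genes was not computed without a minimum, so these counts have no background to be read against. In cells with neither Apoe nor interferon UMIs, a setting chosen after seeing the data, the median log2 ratio was 0.016 and that of the sum 0.067. The counts there were 1 higher and 2 lower at 1.1-fold, beside 15.2% and 23% of all genes. At 1.2-fold 0 were higher, where the share of all genes was not computed. At 2000 UMIs the median correlation among H2-K1, H2-D1 and B2m was 0.14 and 0.23, and the summed genes were 1.34-fold and 1.79-fold higher in cells with 3 or more interferon UMIs than in cells with 0. That plasma-positive value was 1.76 without Ifitm3 and Ifi27l2a in the interferon list. The cause of these moves was not tested. By gene, the log2 ratio ran from 0.07 to 0.37 for H2-D1, 0.00 to 0.26 for H2-K1, 0.14 to 0.25 for B2m, -0.16 to -0.05 for H2-T23 and -0.19 to 0.14 for Tap1. The lower end of each of these ranges was the value in cells with neither Apoe nor interferon UMIs. That setting is a subset of cells and not another way of processing the same cells. Depth limits H2-Q7 throughout and the peptide supply genes among the 110 plasma-negative cells of the top interferon class.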

Other observations

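MHC class II genes, which serve presentation to CD4+ T cells, were led by H2-DMa, a chain of the peptide exchange factor, at 265 CPM in the plasma-negative and 280.2 CPM in the plasma-positive library. The genes of the surface molecule were scarce, with H2-Ab1 at 9.79 and 10.7 CPM and H2-Aa and H2-Eb1 below 10 CPM in both libraries. Of 6 class II genes with at least 10 CPM, 5 were above 0 on the log2 scale with a median of 0.07, beside 35.7% above 0 and a median of -0.04 over all genes. The invariant chain Cd74, at 29.7 and 37.6 CPM (0.34), and H2-Ab1 (0.12) had the highest ratios, with H2-Ob (-0.05) and H2-DMb1 (0.05) lowest. Classes of cells were made from the UMIs of Cd74, H2-Aa, H2-Ab1 and H2-Eb1, 4 of the 10 listed class II genes. Cells with 3 or more of these UMIs after thinning numbered 13 in the plasma-negative (0.143%) and 18 in the plasma-positive library (0.184%). In those cells the 10 class I genes summed to 4154 CPM (3120 to 5420, from 54 UMIs) and 6667 CPM (5527 to 7972, from 120 UMIs), against 2887 and 3235 CPM in cells with none of them. Holding the shares of these classes equal took the difference in the summed class I genes from 0.18 to 0.17 on the log2 scale. Cells with none of these UMIs made up 97.1% of the plasma-negative and 96.3% of the plasma-positive library, so this weighting could move the value only a little. With all 10 listed class II genes, a setting chosen after seeing the data, the sum was 3447 CPM (3204 to 3703) and 3813 CPM (3575 to 4062) in cells with 3 or more UMIs (217 and 251 cells), against 2816 and 3199 CPM in cells with none, and equal shares left a difference of 0.18.

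The interferon-induced list that defined the cell classes summed to 256 CPM in the plasma-negative and 541 CPM in the plasma-positive library, 2.12-fold. All 14 of its genes with at least 10 CPM were higher, beside 35.7% of all genes at that level. They ran from Slfn8 (0.09) and Xaf1 (0.34) to Ifi27l2a (2.22) and Ifi207 (2.44). H2-Q6, a neighbour of H2-Q7 with the same pair of promoter motifs, was counted at 2.40 CPM from 83 UMIs and 4.26 CPM from 179 UMIs, a log2 ratio of 0.83 (0.44 to 1.22). H2-M2, a further non-classical heavy chain chosen after its values were seen, had 22 UMIs in 3 plasma-negative cells, 19 of them in 1 cell, and 1 UMI in the plasma-positive library.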
